A study of Mus musculus with 8 samples.

Results

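F-box proteins of the mouse oocyte were followed in polysomal (P) and non-polysomal (NP) RNA, as the 73 genes, of 25574 in the expression table, whose symbols begin with Fbxo, Fbxw or Fbxl and a number. Another 3 genes that match this pattern were not part of the set and are not analysed here. The 73 genes were split into the 12 genes Fbxw13 to Fbxw28 that lie next to each other on chromosome 9, called the Fbxw cluster below, and 61 other F-box genes. Both datasets held 4 libraries, NP replicates 1 to 4 and P replicates 1 to 4, made from oocytes at nuclear envelope breakdown (NEBD), the start of meiotic maturation, when the oocyte relies on stored maternal mRNA.

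All libraries came from fully grown oocytes of CD1 mice 8 weeks of age, collected 46 h after 5 IU of pregnant mare serum gonadotropin, held in the germinal vesicle stage with 100 µM IBMX, freed of their follicle cells and cultured for 180 min without IBMX. Cycloheximide, which freezes ribosomes on mRNA, was then added at 0.1 mg/ml for 10 min, to both datasets alike. Each lysate of 200 oocytes was run on a 10 to 50% sucrose gradient and split into 10 fractions, of which fractions 2 to 5 were pooled as NP and fractions 6 to 10 as P. The comparison asks which mRNAs lay in the polysomal part of the gradient and which in lighter complexes. Since the NP pool also holds ribosomal subunits and monosomes, NP is not RNA free of ribosomes. The authors could neither show nor exclude that heavy stored particles of RNA and protein sedimented with the polysomes. A place in P is therefore not proof of translation. After removal of ribosomal RNA the pools were copied into cDNA with random and oligo(dT) primers, amplified and sequenced. FPKM, the read number scaled to gene length and library size, gives the share of a gene within its own library, so the amount of an mRNA in one part of the gradient against the other was not measured. Because each library pools many oocytes, fewer oocytes with a transcript and less of it per oocyte cannot be told apart.

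F-box proteins are the interchangeable parts of SCF ubiquitin ligases. In such a ligase the cullin Cul1 is a scaffold, the RING protein Rbx1 brings the ubiquitin-conjugating enzyme, and Skp1 connects the scaffold to the F-box domain of the substrate receptor. The rest of the F-box protein chooses the substrate, through WD40 repeats in the Fbxw class, leucine-rich repeats in the Fbxl class and other domains in the Fbxo class. Destruction of cell cycle proteins by ubiquitin ligases drives meiosis, and the cluster on chromosome 9 is a group of paralogues known for expression in oocytes.

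The identity of the samples was checked on marker genes. All 16 oocyte markers were measured, with a summed FPKM of 9012 to 17879 for NP and 10573 to 44142 for P. Of the 14 cumulus and granulosa cell markers, 6 passed the filter on low values, and the sum of all 14 was 6.25 to 125 FPKM for NP and 16.2 to 62.6 FPKM for P. Foxl2, Amhr2, Inhba, Has2 and Ptx3 were listed at 0 in every library. Cyp19a1 was above 0 in every library, with 6.07 to 75.2 FPKM in NP and 0.190 to 62.6 FPKM in P. Cyp11a1 reached 46.4 FPKM in NP replicate 4 and 17.9 FPKM in P replicate 4. Of the 6 blood and immune cell markers in the table, Cd68 was listed above 0, in 3 NP libraries. A scaling number for each library could be read from the smallest steps of its FPKM values and ranged from 1299377 to 7594637 for NP and from 2677946 to 4699328 for P. At these depths the cluster genes were covered by 99 to 77641 reads per gene and library (median 3452.5), and the 57 other F-box genes whose reads could be recovered by 0 to 6353 (median 105). These reads come from amplified cDNA without molecular identifiers, so a high number lowers counting error only and not the variation from amplification.

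Most of the cluster genes share the letters at the ends of their transcripts, which are shown here because cytoplasmic polyadenylation through the 3′ end is a known route to polysomes in maturing oocytes. In the GENCODE vM21 annotation of GRCm38, the build used by the authors, 10 of the 12 cluster genes have a transcript with nearly the same letters next to its 3′ end. The runs below are written 5′ to 3′ as RNA-sense DNA, lie on the minus strand of chromosome 9 and contain the polyadenylation signal AATAAA in capitals.
Fbxw24: ttcctcaatgatAATAAAggtctatttgca
Fbxw18: ttcctcaatgatAATAAAggtctatttgca
Fbxw16: ttcctcaatgatAATAAAggtctatttgca
Fbxw20: ttcctcaatgatAATAAAggtctttttgca
Fbxw14: ttactcaatgatAATAAAggtctatttgca
Fbxw28: ttactcaatgatAATAAAggtctatttcca
Fbxw21: ttcctcaatgatAATAAAagtctatttgca
Fbxw13: ttcctcgatgatAATAAAagtctatttgc
Fbxw19: ttccttaatgatAATAAAgatatatttgca
Fbxw15: ttcctcaaagatAATAAAggcctatttgca
The runs of Fbxw24, Fbxw18 and Fbxw16 were identical over all 30 bases (chr9:109601120-109601149, chr9:109676738-109676767 and chr9:109432322-109432351), and that of Fbxw13 has 29 bases. The string TGATAATAAA, chosen after these ends had been read, stood within the last 40 bases of a coding transcript of 9 of the 12 cluster genes, against 1 other F-box gene, Fbxo48, and 77 of 21901 coding genes (0.352%). With 1 representative transcript per gene and the given strand only, AATAAA lay in the last 40 bases of 9 of 12 cluster genes, 39 of 60 other F-box genes (65.0%) and 55.9% of all 21608 coding genes, and ATTAAA in 2, 7 and 14.8%. Fbxw22 and Fbxw26 are the 2 cluster genes with ATTAAA. The 3′ untranslated regions of the cluster were short, with a median of 58.5 bases (52 to 401), against 975.5 bases for the other F-box genes and 739 bases for all coding genes.

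Letters of the cytoplasmic polyadenylation element, TTTTAT or TTTTAAT (the latter can overlap AATAAA), were searched in the last 100 bases of each 3′ untranslated region. They were found in 0 of the 12 cluster genes, 12 of the 60 other F-box genes and 16.1% of all coding genes, and a missing match says only that these letters do not stand in this window. Regions shorter than 100 bases were searched in full. Most cluster genes, with a median of 58.5 bases, therefore gave less sequence to search than most other genes, and the shares are not over equal lengths. Fbxw17, a WD40 F-box gene on chromosome 13 that lies outside the cluster, is among the 12 other F-box genes with these letters and is shown as an example of them. The 12 include genes that leaned either way. The log2 difference of P minus NP was 0.70 for Fbxw17, −1.996 for Fbxl21 and −1.40 for Fbxw4. Whether the letters go with the place of an mRNA in the gradient was not tested. A run next to the 3′ end of Fbxw17 (chr13:50433732-50433761, plus strand) holds the variant signal ATTAAA followed by TTTTAT, both in capitals.
Fbxw17: accaagaatgtaATTAAAatatTTTTATtt

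The coding sequences of the cluster were 79.9 to 99.1% identical in pairs (median 84.0% over 66 pairs, gaps counted as differences), and Fbxw17 was 56.5 to 57.8% identical to them. Fbxw14 and Fbxw28 were the closest pair at 99.1%, and Fbxw22 shared 92.3% with Fbxw14 and 91.9% with Fbxw28. Of all windows of 50 bases in their transcripts, 67.6% in Fbxw14 and 67.1% in Fbxw28 also occurred in another gene, mostly in each other, and with windows of 150 bases, the read length, the shares were 30.2% and 32.2%. In the other 10 cluster genes no window of 150 bases was shared. Windows of 50 bases were shared in all 12 cluster genes (5.77 to 67.6%, median 10.8%) and in 14 of 60 other F-box genes (median 0). How reads with several matches were counted is not stated in the sources at hand. The values of Fbxw14 and Fbxw28 are therefore uncertain as single genes, and to a lesser degree those of the other 10.

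The cluster genes were abundant in both datasets. The 12 genes, which span 606.6 kb of chromosome 9 (109139454 to 109746089), held 2.03, 1.80, 1.46 and 1.67% of the summed FPKM in NP replicates 1 to 4. In P replicates 1 to 4 they held 6.88, 2.28, 1.54 and 2.72%. NP had a mean share of 1.74% ± 0.240 and P of 3.35% ± 2.40 (SD, n = 4 each). P replicate 1 stood far above the other 7 libraries, P replicate 3 lay within the NP range, and the difference between the means, 1.61 percentage points, was smaller than the spread between the P libraries. Without P replicate 1 this difference was 0.438 percentage points.

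**Figure D1:**
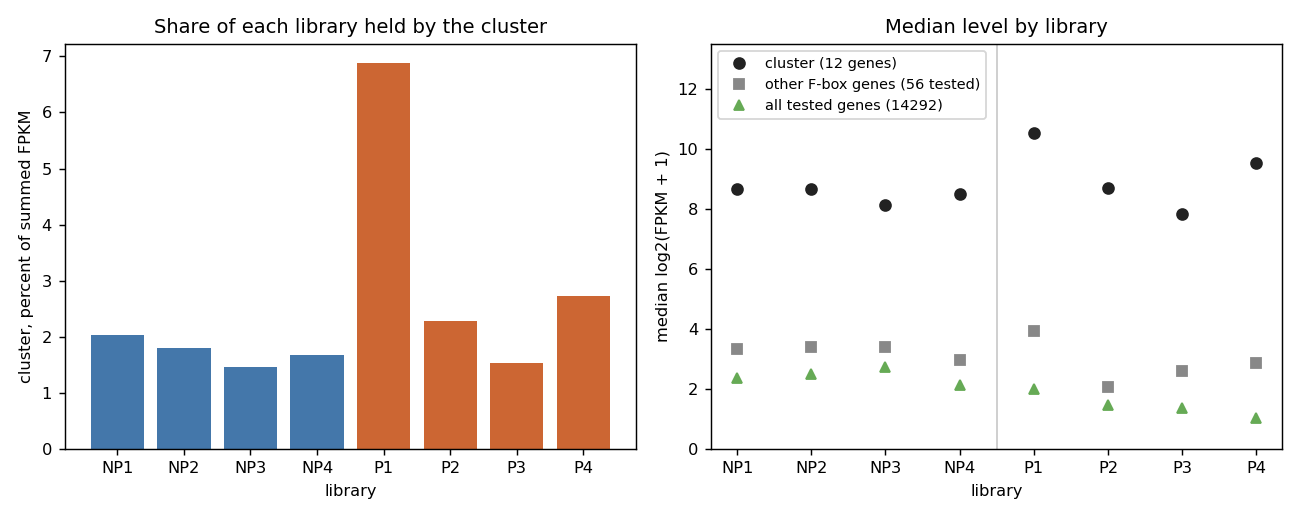
Left, bars from 0 give the percent of the summed FPKM of each library held by the 12 cluster genes, NP in blue and P in orange. Right, points give the median log2(FPKM + 1) of the cluster (12 genes), the other F-box genes (56 tested) and all 14292 tested genes in each library, and the cluster lies above both in every library, highest in P replicates 1 and 4.

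Within the F-box family the cluster held most of the signal, 78.6 to 88.1% of the summed F-box FPKM in NP and 82.8 to 96.3% in P. The 61 other genes held 0.312% ± 0.0690 of the summed FPKM in NP and 0.268% ± 0.0357 in P (SD, n = 4 each). Ranked by mean FPKM over all 25574 genes, 2 cluster genes stood among the first 10 in P and 5 among the first 50, and all 12 lay within the first 500. In NP the corresponding numbers were 0, 4 and 9. The P ranks rested in part on P replicate 1, without which the numbers in P were 0, 4 and 10. No other F-box gene stood among the first 500 in either dataset.

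Fbxw24 had the highest mean in P. Its FPKM was 1602, 1721, 1061 and 1181 in NP replicates 1 to 4 and 11096, 1704, 1426 and 2693 in P replicates 1 to 4. One library, P replicate 1, set the P mean of 4229.8 ± 4609 (SD, n = 4), while P replicates 2 and 3 fell between the lowest and the highest of the NP values. NP had a mean of 1391 ± 319.5 (SD, n = 4), and the gene ranked 35 in NP and 6 in P. It lies at 109601117 to 109626059 on the minus strand. The fitted difference between P and NP was 1.10 on the log2(FPKM + 1) scale (SE 0.66, adjusted p = 0.572 from limma).

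Fbxw15, at 109552604 to 109568262, was the next most abundant in P and the most abundant cluster gene in NP. It had 3471, 3164, 848 and 696 FPKM in NP and 9335, 3318, 1844 and 1658 FPKM in P replicates 1 to 4. In both datasets replicates 1 and 2 were high and replicates 3 and 4 were low, and the means were 2045 ± 1476 in NP and 4039 ± 3608 in P (SD, n = 4 each). Fbxw19, at 109478570 to 109495875, had 1629.9, 709, 1459 and 2535 FPKM in NP and 6604, 765, 1179 and 5306 FPKM in P. Here replicates 1 and 4 of P were the high libraries and replicate 2 was the lowest in both datasets.

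Fbxw16 and Fbxw18 were abundant and had fitted differences near 0, each smaller than its SE. Fbxw16, at 109432319 to 109449140, had 2191, 1772, 1130.4 and 2848 FPKM in NP and 5840.3, 1997, 485 and 2683 FPKM in P. Its lowest and its highest library both belonged to P. Fbxw18, at 109676734 to 109702700, had 1216, 1146, 502 and 658 FPKM in NP and 2203, 729.8, 259 and 1634 FPKM in P, and again P held both extremes. The log2 differences of P minus NP were 0.07 (SE 0.71) for Fbxw16 and 0.14 (SE 0.68) for Fbxw18. A difference smaller than its SE was not particular to these genes. It was also seen for Fbxw19 (0.72, SE 0.74), Fbxw22 (0.71, SE 0.88) and Fbxw26 (0.18, SE 0.71), and for Fbxw13 and Fbxw20 described below.

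The other 7 cluster genes had lower levels, with mean FPKM values of 136 to 394 in NP and 212 to 628 in P. Fbxw14 had 215, 219.6, 182 and 217 FPKM in NP and 1574, 187, 116 and 636 FPKM in P. Fbxw22 had 116, 126, 131 and 172 FPKM in NP and 1215, 129, 34.3 and 442 FPKM in P. For both genes the NP libraries lay close together while the P libraries ranged from below to far above them. Mean FPKM values in NP and P were 283 ± 118 and 610.1 ± 523 for Fbxw21, 298 ± 40.1 and 599.5 ± 519.6 for Fbxw28, and 394 ± 141 and 606 ± 521 for Fbxw26 (SD, n = 4 each). In these 3 genes P replicate 1 was the highest and P replicate 3 the lowest of the P libraries.

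Fbxw13 and Fbxw20 were the cluster genes with fitted differences below 0 over all libraries. By mean FPKM, Fbxw13 was higher in P, with 259 against 196 in NP. Fbxw20 was lower in P by this measure too, with 212 against 257 in NP. Fbxw13, at 109179227 to 109195975, had 223, 186, 142 and 233 FPKM in NP and 648, 32.6, 14.7 and 341 FPKM in P. Its P replicates 2 and 3, with 158 and 99 reads, lay far below every NP library, and P replicates 1 and 4 lay above every NP library. Fbxw20, at 109217432 to 109234754, had 364, 360.1, 155 and 149 FPKM in NP and 408, 107, 43.4 and 288 FPKM in P. The log2 differences were −0.89 (SE 0.98) for Fbxw13 and −0.61 (SE 0.72) for Fbxw20, with adjusted p values of 0.717 and 0.732 from limma. Relative to the median of all tested genes, which was itself below 0, the differences were −0.50 for Fbxw13 and −0.22 for Fbxw20. On this relative scale both changed sign without P replicate 3, to 0.41 for Fbxw13 and 0.38 for Fbxw20.

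**Figure D2:**
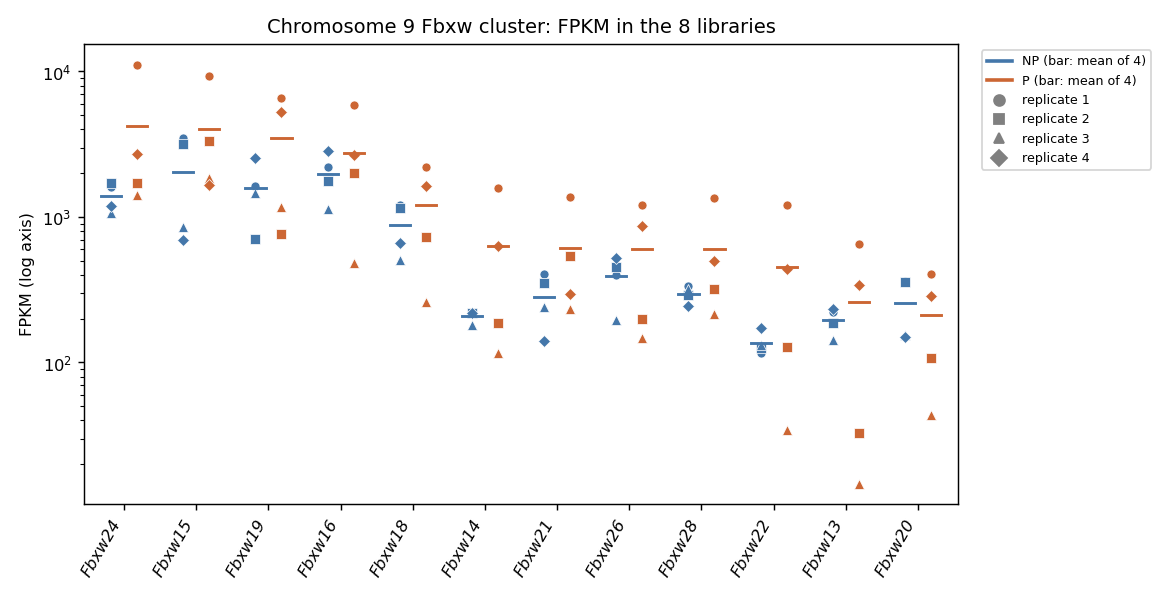
FPKM (log axis) of the 12 cluster genes in the 8 libraries, NP in blue and P in orange, with 1 symbol for each replicate number and a bar at the mean of 4 libraries. P replicate 1 is the highest P value of all 12 genes, and the NP and P libraries overlap for each gene.

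The order of the P libraries was similar for most cluster genes. P replicate 4 came next after P replicate 1 for 10 genes, and P replicate 3 was the lowest for 10, the exceptions being Fbxw19 (P replicate 2) and Fbxw15 (P replicate 4). P replicate 1 was the highest P library for 12 of 12 genes and lay above all NP libraries for 12, against 18% of all tested genes and 26.6% of the 1341 tested genes with a mean FPKM above 100 in NP or P. P replicate 4 lay above all NP libraries for 8 cluster genes, against 14.2% of all and 27.1% of these abundant genes. For P replicate 2 the number was 1, against 12.1 and 11.6%, and for P replicate 3 it was 0, against 14.2 and 13.9%. P replicate 3 lay below all NP libraries for 8 cluster genes and P replicate 2 for 2, against 32 and 31.1% of all tested genes. Over the 8 libraries Pearson's r between pairs of cluster genes on the log2 scale had a median of 0.75 (0.15 to 0.97, 66 pairs), and the pairs share libraries, depth and sequence. For the 28 tested other F-box genes with a mean FPKM above 10 over all libraries the median of the 378 pairs was 0.09 (−0.86 to 0.95). Most of these genes were less abundant than the cluster genes, and no set of equally abundant genes was compared.

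The summed level of the oocyte markers was also high in P replicates 1 and 4. It was 17879, 16829, 9012 and 16270.1 in NP replicates 1 to 4 and 32788, 12716, 10573 and 44142 FPKM in P replicates 1 to 4. The markers did not move as one, since P replicates 1 and 4 both lay above every NP library for 7 of 16, among them Gdf9, Zp3 and Padi6, and both below for 3, Dazl, Figla and Nobox. The log2 difference of P minus NP was below 0 for 7 of the 16. The summed cluster FPKM, 12166, 10494, 6369 and 9601 in NP and 42868, 10031, 5998 and 17339.9 in P, was also taken as a ratio to the marker sum, a measure chosen after the values had been seen. This ratio was 0.680, 0.624, 0.707 and 0.590 in NP and 1.31, 0.789, 0.567 and 0.393 in P. It was higher than in any NP library in P replicates 1 and 2 and lower in P replicates 3 and 4. Its mean was 0.764 ± 0.397 in P against 0.650 ± 0.0530 in NP (SD, n = 4 each), a difference within the spread of P. The part of the markers in the cluster values was not tested.

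Differences between P and NP were tested for the 14292 genes whose mean FPKM passed 0.1 in one dataset or both, which included all 12 cluster genes and 56 of the 61 other F-box genes. The 5 genes below the filter were Fbxo2, Fbxo27, Fbxo32, Fbxo41 and Fbxl15. At an adjusted p below 0.1 from limma, 0 of the 68 tested F-box genes were called, against 3 of all 14292 genes (0.021%). At an unadjusted p below 0.05 there were 2, Fbxl21 and Fbxw10, against 9.95% of all tested genes. The adjusted p from limma lay between 0.572 and 0.968 for the cluster genes and was 0.405 for the lowest of the family.

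Without a test, the cluster and the other F-box genes took different places in the distribution of differences. The median log2 difference of P minus NP was 0.68 for the cluster, −0.39 for the 56 other F-box genes and −0.39 for all tested genes. It was above 0 for 10 of 12 cluster genes and 15 of 56 others, against 28.6% of all tested genes and 35.1% of the 1341 genes with a mean FPKM above 100. Without P replicate 1 it was above 0 for 6 cluster genes and 10 others, against 25.9% of 14155 tested genes, and without P replicate 4 or NP replicate 3 for 7 cluster genes. Mean FPKM was more than 2-fold higher in P for 6 cluster genes and 6 others, against 16.9% of all tested genes, and more than 2-fold higher in NP for 0 and 17, against 40.6%. Without P replicate 1, 0 cluster genes and 5 others were more than 2-fold higher in P, against 15.2%.

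The difference of the medians, 1.07, rested in part on single libraries. In each library, the cluster median was 5.32, 5.28, 4.72 and 5.52 log2 units above the median of the other F-box genes in NP replicates 1 to 4 and 6.58, 6.64, 5.24 and 6.67 in P replicates 1 to 4. P replicates 1, 2 and 4 lay above all NP libraries and P replicate 3 within their range. The cluster median of 0.68 fell to 0.02 without P replicate 1 and to 0.36 without P replicate 4, and it was 1.04 without P replicate 3. Relative to all tested genes, the cluster median was 1.08 higher as deposited and 0.62 after quantile normalization, and 0.50 without P replicate 1. No test was made over the cluster, because its genes share libraries and sequence and are not replicates.

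**Figure D3:**
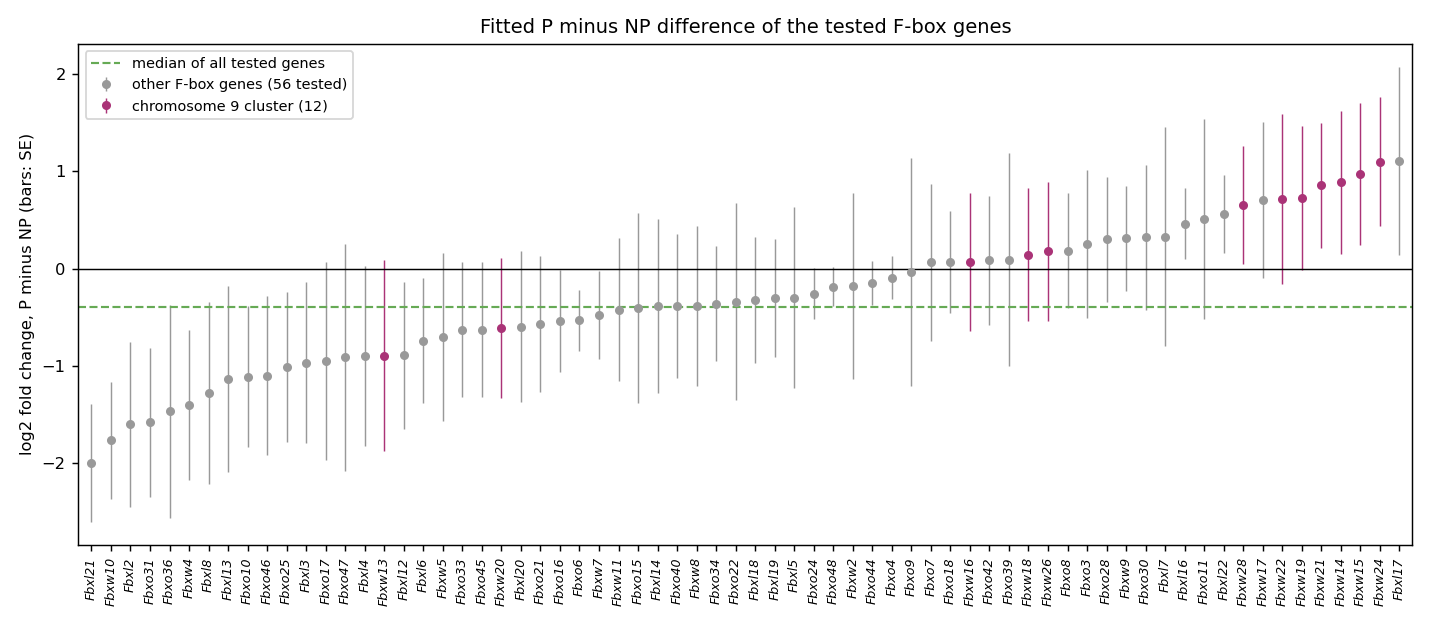
Fitted log2(FPKM + 1) difference of P minus NP for the 68 tested F-box genes in ascending order, with bars for the SE, cluster genes in purple and other F-box genes in grey. The dashed line is the median of all tested genes (−0.39), and 10 of the 12 cluster genes lie above 0 while none of the 68 genes passed the test.

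NP and P libraries were fully separated for 3 F-box genes, Fbxo31, Fbxl21 and Fbxw10, all higher in NP, against 5.92% of all tested genes. In the other direction there were 0, against 0.357%. These counts followed the scaling. After centring each library on its median, 1 F-box gene was higher in all NP libraries and 10 in all P libraries, among them Fbxw15, Fbxw21, Fbxw24 and Fbxw28 of the cluster, where all tested genes gave 0.812% and 12.1%. After quantile normalization there were 2 in each direction, against 2.53% and 4.62%. Without P replicate 1 the number higher in NP was 6, against 11.4% of all tested genes in that setting.

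Fbxl21, a receptor for the clock protein cryptochrome, was low, with its higher values in NP. It had 1.57, 2.25, 2.38 and 9.58 FPKM in NP replicates 1 to 4, from 24, 14, 83 and 349 reads, and 0.178, 0, 0 and 0 FPKM in P, from 4, 0, 0 and 0 reads. The log2 difference was −1.996 (SE 0.61, adjusted p = 0.405 from limma). Fbxw10, a WD40 F-box gene on chromosome 11, had 8.64, 2.87, 1.67 and 0.327 FPKM in NP, from 111, 15, 49 and 10 reads, and was listed at 0 in the 4 P libraries. With a floor of 3 reads in each P library, its mean was at least 16.1-fold lower in P, a bound that was 7.75-fold without NP replicate 1. The log2 difference was −1.76 (SE 0.60, adjusted p = 0.416 from limma). On reads recovered from the FPKM steps, voom called these 2 of 67 F-box genes, with adjusted p = 0.0334 for Fbxl21 and adjusted p = 0.0613 for Fbxw10 from limma, against 0.961% of 12897 genes.

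Fbxo31, a receptor for cyclin D1, was the third gene without overlap. It had 18.1, 19.4, 10.4 and 18.5 FPKM in NP and 7.18, 1.43, 8.78 and 4.63 FPKM in P, with means of 16.6 ± 4.20 and 5.51 ± 3.21 (SD, n = 4 each). The nearest libraries were NP replicate 3 and P replicate 3. The log2 difference was −1.58 (SE 0.76, adjusted p = 0.514 from limma). Fbxl2, which is anchored to membranes by a lipid, and Fbxw4, known as dactylin, had the largest differences towards NP besides Fbxo31 among genes with a mean FPKM above 10. Fbxl2 had 37.7, 26.7, 39.7 and 8.06 FPKM in NP and 21.1, 10.5, 1.32 and 6.97 FPKM in P. Fbxw4 had 212, 176, 23.2 and 149 FPKM in NP and 65.2, 33.6, 71.7 and 15.96 FPKM in P, and NP replicate 3 was the only NP library within the P range. Their log2 differences were −1.60 (SE 0.85) and −1.40 (SE 0.77), with adjusted p values of 0.533 and 0.542 from limma.

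Towards P the largest differences outside the cluster, among genes with a mean FPKM above 10, were those of Fbxl17, Fbxw17 and Fbxo11. Fbxl17, which recognises wrongly paired BTB domain proteins, had 13.1, 16.7, 4.23 and 7.77 FPKM in NP and 46.7, 7.56, 4.27 and 113 FPKM in P. Only P replicates 1 and 4 were above NP, the same libraries that were high for the cluster. Fbxw17 had 10.5, 14.7, 6.55 and 4.24 FPKM in NP and 23.2, 5.47, 7.84 and 35.3 FPKM in P, again with P replicates 1 and 4 above and the others within the NP range. Fbxo11, a receptor for the transcription factor Bcl6, had 13.8, 1.86, 25.8 and 2.16 FPKM in NP and 41.8, 14.6, 5.81 and 2.25 FPKM in P, and its values varied as widely within each dataset as between them. The log2 differences were 1.10 (SE 0.97), 0.70 (SE 0.81) and 0.51 (SE 1.03).

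Outside the cluster, 49 of the 61 genes had a mean over 1 FPKM in one dataset or both, 29 above 10 and 6 above 100, and 35 were above 0 in all 8 libraries. Fbxo34 was the most abundant of them over all libraries. It had 156, 164, 234 and 136 FPKM in NP and 191, 93.3, 269.6 and 61.2 FPKM in P, with the P libraries on both sides of the NP range, and 25.2% of its windows of 50 bases also occurred in another gene, mostly Gm7224. Fbxo46 had 148, 463, 148 and 48.7 FPKM in NP and 39.6, 57.4, 31.6 and 313 FPKM in P, with 1 high library in each dataset. Fbxo18, a DNA helicase that acts on recombination intermediates, had 120.2, 109.8, 120.5 and 131 FPKM in NP and 174, 170.1, 77.98 and 109 FPKM in P, the narrowest spread in NP among these genes.

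The remaining 7 of the 10 most abundant other F-box genes had log2 differences between −1.40 and 0.30. Mean FPKM values in NP and P were 101 ± 33.2 and 123 ± 67.4 for Fbxo8, which carries a Sec7 domain, and 106 ± 34.3 and 95.2 ± 62.1 for Fbxl19, which binds CpG islands through a zinc finger (SD, n = 4 each). They were 89.9 ± 45.02 and 78.1 ± 83.1 for Fbxo21, 77.1 ± 34.1 and 56.3 ± 40.6 for Fbxo33, and 57.4 ± 23.6 and 75.3 ± 43.6 for Fbxo28 (SD, n = 4 each). Fbxw8, the partner of the cullin Cul7, had 58.4 ± 36.5 in NP and 60.98 ± 53.3 in P (SD, n = 4 each), and Fbxw4 is described above. In none of these 7 genes was the difference of the means larger than the SD of both datasets, except for Fbxw4.

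**Figure D4:**
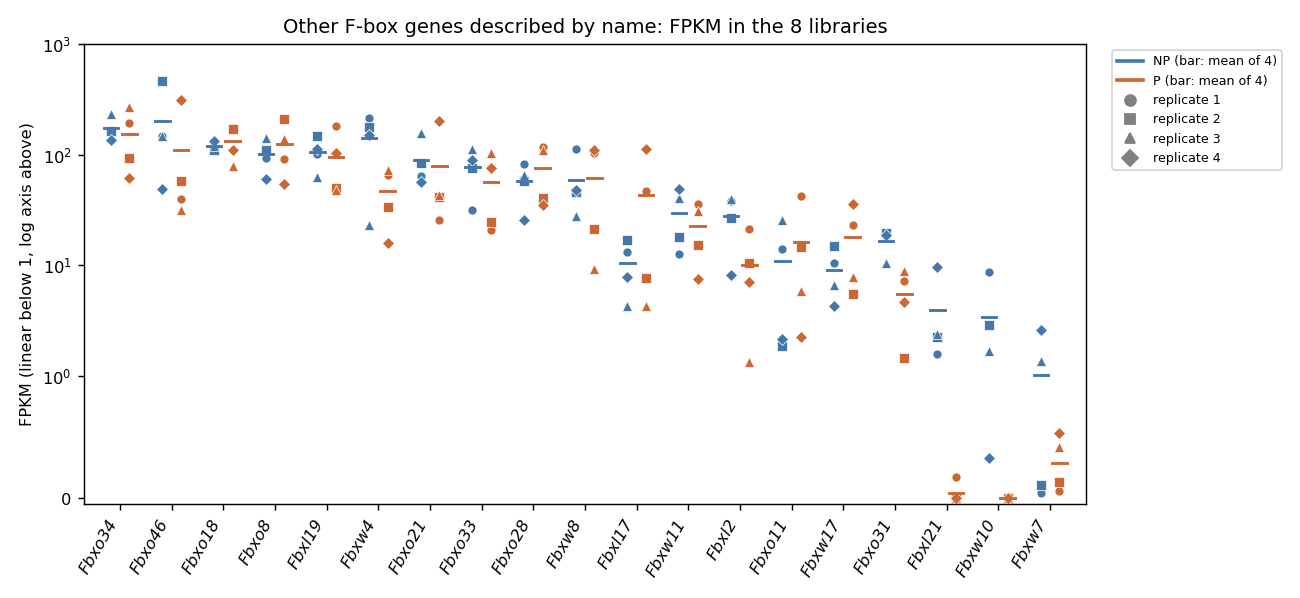
FPKM of the 19 other F-box genes described by name, on an axis that is linear below 1 and logarithmic above, NP in blue and P in orange, with 1 symbol for each replicate number and a bar at the mean of 4 libraries. Only Fbxo31, Fbxl21 and Fbxw10 show every NP library above every P library.

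Fbxw7 and Fbxw11 are the best known WD40 receptors outside the cluster. Fbxw7, which recognises cyclin E and Myc, was low, with 0.0445, 0.109, 1.36 and 2.56 FPKM in NP and 0.0604, 0.133, 0.415 and 0.530 FPKM in P. Its values were highest in replicates 3 and 4 of both datasets, and those of replicates 1 and 2 came from 1 to 3 reads. Fbxw11, one of the paired β-TrCP receptors that bind phosphorylated degrons, had 12.5, 17.96, 40.04 and 48.5 FPKM in NP and 35.9, 15.3, 30.99 and 7.42 FPKM in P, so the datasets overlapped over most of their range. By class, the median log2 difference was −0.60 for the 17 tested Fbxl genes, −0.35 for the 30 Fbxo genes and −0.42 for the 9 Fbxw genes outside the cluster.

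The partners of F-box proteins were taken from lists of 50 genes in the table, of which 48 were tested. At an adjusted p below 0.1 from limma, 0 of the 48 were called, 2 had an unadjusted p below 0.05, Cops7b and Ccnf, against 9.95% of all tested genes, and 3 had all NP libraries above all P libraries, Cops7b, Ccnf and Ube2d3, against 5.92%. The median log2 difference was 0.37 for the 17 tested genes of the SCF core and neddylation, with 11 above 0 against 28.6% of all tested genes. It was −0.50 for the 8 SCF-linked ubiquitin-conjugating enzymes, −0.43 for the 9 subunits of the COP9 signalosome, which removes Nedd8 from cullins, −0.42 for 7 F-box proteins under other names and −0.15 for the 7 other cullins. The P libraries of the SCF core and neddylation differed widely. Their summed FPKM was 1263, 1131, 1534 and 4545 in NP replicates 1 to 4 and 3099, 2113, 1024 and 5027 in P replicates 1 to 4. P replicate 3 thus lay below every NP library and P replicate 4 above.

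Of the SCF core itself, the scaffold Cul1 leaned towards P. It had 81.3, 50.4, 193 and 93.5 FPKM in NP and 269.8, 177, 118 and 347 FPKM in P, with P replicates 1 and 4 above every NP library. The log2 difference was 1.17 (SE 0.60, adjusted p = 0.528 from limma). Skp1a, the adaptor that binds the F-box, was as abundant as the upper cluster genes, with 695, 569.8, 902 and 3338 FPKM in NP and 2116, 1255, 357 and 3542 FPKM in P. Rbx1 had 167, 162, 98.9 and 725 FPKM in NP and 159.8, 136, 89.98 and 666 FPKM in P. Both genes had 1 high NP library, replicate 4, and were also highest in P replicate 4. Their log2 differences were 0.37 (SE 0.76) and −0.14 (SE 0.75).

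Among F-box proteins under other names, Ccnf, Btrc and Skp2 differed in level and order. Ccnf, cyclin F, after which the F-box was named, had 76.1, 46.4, 110.4 and 102 FPKM in NP and 29.8, 18.9, 14.2 and 35.9 FPKM in P. Its datasets did not overlap, and the log2 difference was −1.73 (SE 0.60, adjusted p = 0.416 from limma). Btrc, the other β-TrCP receptor, had 285, 253, 130.1 and 93.1 FPKM in NP and 106, 304, 91.6 and 94.2 FPKM in P, with P replicate 2 above every NP library. Skp2, a receptor for the inhibitor p27, had 0.758, 7.08, 8.71 and 4.78 FPKM in NP and 1.24, 1.01, 0.436 and 0.783 FPKM in P, and NP replicate 1 alone lay within the P range. Its log2 difference was −1.53 (SE 0.80, adjusted p = 0.533 from limma).

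Most genes around the cluster had lower levels. Within 500000 bases on either side the table lists 27 genes outside the cluster, of which 18 were tested and 8 were at 0 in every library. The median of the means of the tested neighbours was 7.95 FPKM in NP and 9.002 in P, against a lowest cluster mean of 136 in NP and 212 in P. The highest neighbour mean was 237 in NP, of Slc26a6, and 359 in P, of Plxnb1, which came from P replicate 4 with 1420.5 FPKM while its other libraries had at most 17.9. One gene inside the cluster is not named as an F-box gene. CT025661.1, at 109645122 to 109664652, stands exactly where the annotation used here places Fbxw25, was chosen after its values had been seen, and had 671, 732, 274 and 198 FPKM in NP and 1418, 720.1, 101 and 733 FPKM in P. The coding sequence of Fbxw25 was 82.2 to 88.9% identical to those of the cluster genes. Its P replicate 1 was the highest of the 8 libraries and its P replicate 3 the lowest.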

How the data were processed

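The data were 8 libraries, NP and P replicates 1 to 4, grouped by their titles. The authors trimmed reads with Trim Galore 0.4.1, checked them with FastQC 0.11.5, mapped them to GRCm38 with HISAT2 2.0.5 per the processing notes and quantified genes in Seqmonk 1.40.0. The table deposited by the authors holds FPKM values on a linear scale, 1 per gene and library, with no further normalization between libraries. Its 2 columns of dataset means matched the library means within 0.000575 FPKM. The other deposited tables, which hold expressed genes and the authors' own fold changes and p values from DESeq2, were not used.

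The F-box members, the gene lists and the genes named were chosen with earlier results of these data known. The genes named are all cluster genes, the 10 most abundant other members, the 3 largest differences in each direction among those with a mean FPKM above 10, every member called or without overlap at a mean FPKM above 1, Fbxw7, Fbxw11 and 6 partners. The genes whose mean FPKM passed 0.1 in one dataset or both were tested on log2(FPKM + 1) with limma 3.58.1 in R 4.3.3 (lmFit, eBayes with a trend, 2-sided, Benjamini-Hochberg over all genes, threshold 0.1), so differences of low genes are understated. The labels do not say that replicates came from separate animals, while the methods describe independent profiles. The script was tested on simulated data with known differences, all larger than those of the cluster genes. Whether differences of the size seen in the cluster would be called was therefore not tested. Reads were recovered for 13589 genes from the FPKM steps, with annotated exon lengths for 6974 and searched lengths for 6615, and it is not stated whether such a step counts reads or fragments in the sources used. Sequences came from GENCODE vM21 transcripts and the GRCm38 genome, compared with Biopython 1.88 in Python 3.11.15. Alternatives were the pseudocount, the filter, 2 scalings, a replicate block, voom on the recovered reads and leaving out each library.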

Additional observations from a re-analysis of the deposited data

Results flagged for a closer look

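In each group of 4 libraries, the highest or lowest value was singled out when its gap to the nearest other library, as a share of the range of the group, exceeded Dixon's 95% critical value. Of 80 groups examined, for the genes named and for 3 summary measures, 12 held such a value. Chance gives about 1 in 20 for independent groups, whereas these groups share libraries, and a group with 3 values of 0 and 1 above it is singled out by construction. In the cluster, Fbxw14 had a low NP replicate 3 (182 FPKM), although the 4 NP values lay close together, and Fbxw24 a high P replicate 1 (11096 FPKM). The cluster median was 5.24 log2 units above that of the other F-box genes in P replicate 3, the lowest of P. P replicate 4 was high for Fbxo46 (313 FPKM), Fbxo21 (202 FPKM) and Rbx1 (666 FPKM), and NP replicate 4 for Fbxl21 (9.58 FPKM), Skp1a (3338 FPKM) and Rbx1 (725 FPKM). Fbxo31 was low in NP replicate 3 (10.4 FPKM), Btrc high in P replicate 2 (304 FPKM), and Fbxl21 was above 0 in P replicate 1 alone (0.178 FPKM, 4 reads).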

How the results depend on the processing

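No F-box or partner gene was called in limma under any pseudocount, filter, scaling, left-out library or with the replicate block, and voom on recovered reads called 2 F-box genes. The cluster median log2 difference was 1.64 and that of the other F-box genes 0.57 after centring libraries on their medians, which moved the median of all genes from −0.39 to 0.57. Without single libraries these medians were 0.02 to 1.04 and −0.68 to −0.28, their difference was 0.70 to 1.49, and the percent of summed FPKM in P minus NP was 0.44 to 2.22. Leaving the 50 highest genes out of the sum raised the NP mean share to 2.10% and the P mean share to 4.27%. Their difference rose from 1.61 to 2.17 percentage points. F-box genes without overlap numbered 1 higher in NP and 10 higher in P after median centring and 2 higher in P after quantile normalization, and without single libraries 3 to 6 (without P replicate 1) and 0 to 1 (without P replicate 2). The first was 5 without NP replicate 3 or NP replicate 4, against 8.22 and 10.4% of all genes. The cause was not tested.

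Same-numbered NP and P libraries had correlated deviations of 0.139, 0.0518, 0.251 and 0.155 over 11374 genes, NP replicate 2 correlated best with P replicate 1 (0.136), and no source says that a number marks a shared gradient. With the replicate block 0 F-box genes and 0 partners were called, the lowest adjusted p of a cluster gene from limma was 0.406, and 1 of all genes was called.

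Of 37 genes named, 25 kept the sign of their difference relative to the median of all tested genes under all settings run for it. With a pseudocount of 0.1 it turned to 0.21 for Fbxw20, 0.25 for Fbxo21, 0.19 for Fbxo33, 0.0096 for Fbxw7, 0.38 for Fbxw11 and 0.42 for Btrc, with a filter at a mean FPKM above 1 to 0.004 for Fbxo21, 0.099 for Fbxw7, 0.15 for Fbxw11 and 0.16 for Btrc, and after quantile normalization to −0.099 for Fbxw16, −0.16 for Fbxo34, −0.087 for Fbxl19, −0.067 for Fbxw8, 0.29 for Fbxw7, 0.044 for Fbxw11 and −0.016 for Rbx1. Without single libraries it spanned −1.30 to 0.41 for Fbxw13, −0.60 to 0.38 for Fbxw20, −0.31 to 0.37 for Fbxo34, −0.20 to 0.34 for Fbxl19, −0.82 to 0.26 for Fbxo21, −0.63 to 0.21 for Fbxo33, −0.50 to 0.67 for Fbxw8, −0.31 to 0.31 for Fbxw7, −0.34 to 0.37 for Fbxw11, −0.37 to 0.90 for Rbx1 and −0.43 to 0.25 for Btrc. Depth limits values far below 1 FPKM, such as those of Fbxw7 that came from 1 to 3 reads.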
